A study of Mus musculus with 4 samples.

Results

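The transcripts described here are those of 10 transcription factors that pattern the limb and its mesenchyme outside the Hox clusters: Tbx4, Tbx5, Tbx15, Pitx1, Shox2, Msx1, Msx2, Osr1, Osr2 and Twist1. They were chosen by gene symbol from the 18193 genes that a probe set of the array names alone. Earlier results of these data were known when they were chosen. In all, 18 probe sets measured them. RNA came from mouse embryonic fibroblasts (MEFs), connective tissue cells cultured from C57BL/6 embryos, and each of the 4 conditions was read on 1 Affymetrix array that covers the mouse genome. The conditions were FAN -/- cells that spent 8 h without serum and then 16 h with the cytokine TNF (tumour necrosis factor) at 50 ng/ml, FAN -/- cells left untreated without serum for 24 h, and FAN +/+ cells with the same TNF treatment or untreated. FAN, the product of Nsmaf, is an adaptor of the TNF receptor. All 4 cultures were kept in medium with 0% serum, and the part of the embryo used, the number of embryos and the number of cultures are not given in the sources used here.

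The arrays were grouped by title. The genotype entry of 2 samples goes against the title, calling the TNF-treated FAN +/+ sample FAN -/- and the untreated FAN -/- sample wild type. On the titles, Nsmaf had log2 values of 7.48 with TNF and 7.91 untreated in FAN -/- cells, against 8.55 with TNF and 8.95 untreated in FAN +/+ cells; whether its probe set lies in the deleted part was not given. All 12 genes of a TNF response list rose with TNF in the limma test described below, against 1.57% of all genes tested. The list was chosen with earlier results of these data known. Array medians lay between 6.21 and 6.296 on the log2 scale. The 11 fibroblast markers with a probe set (Col1a1 and Pdgfra among them) all lay above the floor on at least 1 array, while Myod1 (skeletal muscle), Pecam1 (endothelium), Ptprc (leukocytes) and Cdh1 (epithelium) lay at it on all 4. Other markers of these cell types were above it on at least 1 array: 4 of 10 for skeletal muscle (Acta1 and Des among them), 2 of 7 for endothelium (Kdr and Tek), 5 of 10 for leukocytes (Lyz2 and Csf1r among them) and 4 of 9 for epithelium (Epcam among them, at 9.05 to 9.25).

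In the mouse embryo these factors give the limb bud its position, type and skeletal plan. Tbx5 starts the forelimb, and Tbx4 and Pitx1 act in the hindlimb, where Pitx1 lies upstream of Tbx4. Shox2 is needed for the upper limb bones, Tbx15 for the shoulder blade and the dermis, Osr1 and Osr2 for connective tissue and joints, and the bone morphogenetic protein (BMP) responsive Msx1 and Msx2, with the basic helix-loop-helix factor Twist1, for the undifferentiated mesenchyme. Cultured fibroblasts keep part of such a positional programme from the tissue they came from.

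Promoter sequence was on hand for 5 of the 10 genes (RefSeq, build GRCm38.p6), and the 250 bases before the start of each are shown because they are the regions where the genes that differ between genotypes (Twist1, Tbx4 and Shox2) and the paralogues with unlike TNF values (Msx1 and Msx2) could be compared. Twist1 is from chr12:33957421-33957670 (plus strand), Tbx4 from chr11:85896515-85896764 (plus strand), Shox2 from chr3:66981772-66982021 (minus strand), Msx1 from chr5:37824586-37824835 (minus strand) and Msx2 from chr13:53472781-53473030 (minus strand). Each runs 5′ to 3′ on its gene's strand, and capitals mark TATAAA and CCAAT on either strand.
Twist1: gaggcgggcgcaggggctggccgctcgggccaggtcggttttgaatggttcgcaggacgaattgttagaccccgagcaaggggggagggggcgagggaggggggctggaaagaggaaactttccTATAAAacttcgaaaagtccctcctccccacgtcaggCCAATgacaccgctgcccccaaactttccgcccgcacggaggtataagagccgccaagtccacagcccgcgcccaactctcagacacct
Tbx4: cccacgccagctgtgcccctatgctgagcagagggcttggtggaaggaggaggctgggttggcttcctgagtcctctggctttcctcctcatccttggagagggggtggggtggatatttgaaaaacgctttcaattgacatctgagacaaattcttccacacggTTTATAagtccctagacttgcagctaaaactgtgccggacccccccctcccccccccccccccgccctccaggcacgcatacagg
Shox2: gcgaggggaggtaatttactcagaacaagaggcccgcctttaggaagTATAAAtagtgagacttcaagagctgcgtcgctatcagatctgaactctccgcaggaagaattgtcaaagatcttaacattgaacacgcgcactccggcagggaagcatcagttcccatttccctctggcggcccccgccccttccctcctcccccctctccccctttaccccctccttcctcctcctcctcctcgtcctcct
Msx1: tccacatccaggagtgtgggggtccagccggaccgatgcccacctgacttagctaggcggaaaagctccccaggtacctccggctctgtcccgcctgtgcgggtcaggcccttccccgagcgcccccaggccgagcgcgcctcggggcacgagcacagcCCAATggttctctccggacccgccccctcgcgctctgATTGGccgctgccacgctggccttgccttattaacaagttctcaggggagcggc
Msx2: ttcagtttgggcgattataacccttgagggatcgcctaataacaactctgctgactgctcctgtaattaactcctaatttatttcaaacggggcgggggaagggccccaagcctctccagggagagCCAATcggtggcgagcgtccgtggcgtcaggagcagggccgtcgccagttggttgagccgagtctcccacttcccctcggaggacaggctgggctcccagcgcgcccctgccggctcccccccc
TATAAA was found in 3 of these 5 windows (Twist1, Tbx4 and Shox2) and in 12.4% of all 32851 promoter windows of the same length. Counted from the start, the matches began at -203 in Shox2, -126 in Twist1 and -85 in Tbx4, there on the opposite strand. Any part of these matches in the genotype differences was not tested. CCAAT was found in 3 of 5 (Twist1, Msx1 and Msx2) against 33.8% of all windows, and Msx1 held it on both strands. Neither the NF-kB consensus (3.9% of all windows), the homeodomain motif TAATTG (7.17%) nor the T-box motif TCACACCT (1.12%) had a match in the 5 windows; CANNTG, which reads the same on both strands, had one in Msx1, Msx2 and Tbx4 (66.2% of all windows). No matches of different motifs overlapped, and a match describes letters only.

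By the floor used here, all 10 genes counted as measured. Each had a probe set above the floor, a log2 value of 6.27 that is the median of all values and below which values were raised to it, on all 4 arrays; this probe set, the one of highest mean, stands for the gene. Of the 8 genes with a second probe set, 5 had a second one above the floor on all 4 arrays as well, and it took the same sign as the first in all 5 comparisons of arrays. The second probe set of Tbx5 was above the floor only on the FAN +/+ arrays, and those of Msx2 and Osr2 on none. Each condition has 1 array, so nothing replicates a difference between 2 arrays, and it is given without a p-value. "Rose" and "fell" are kept for an additive limma test of genotype and TNF over 11817 genes, in which each genotype and each treatment has 2 arrays and the spread is taken from 1 residual degree of freedom, the difference of the TNF response between genotypes, moderated across genes. In bulk RNA, fewer cells of a type and less RNA per cell cannot be told apart. Nor can genotype be told apart from the cell preparation of each genotype.

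**Figure D1:**
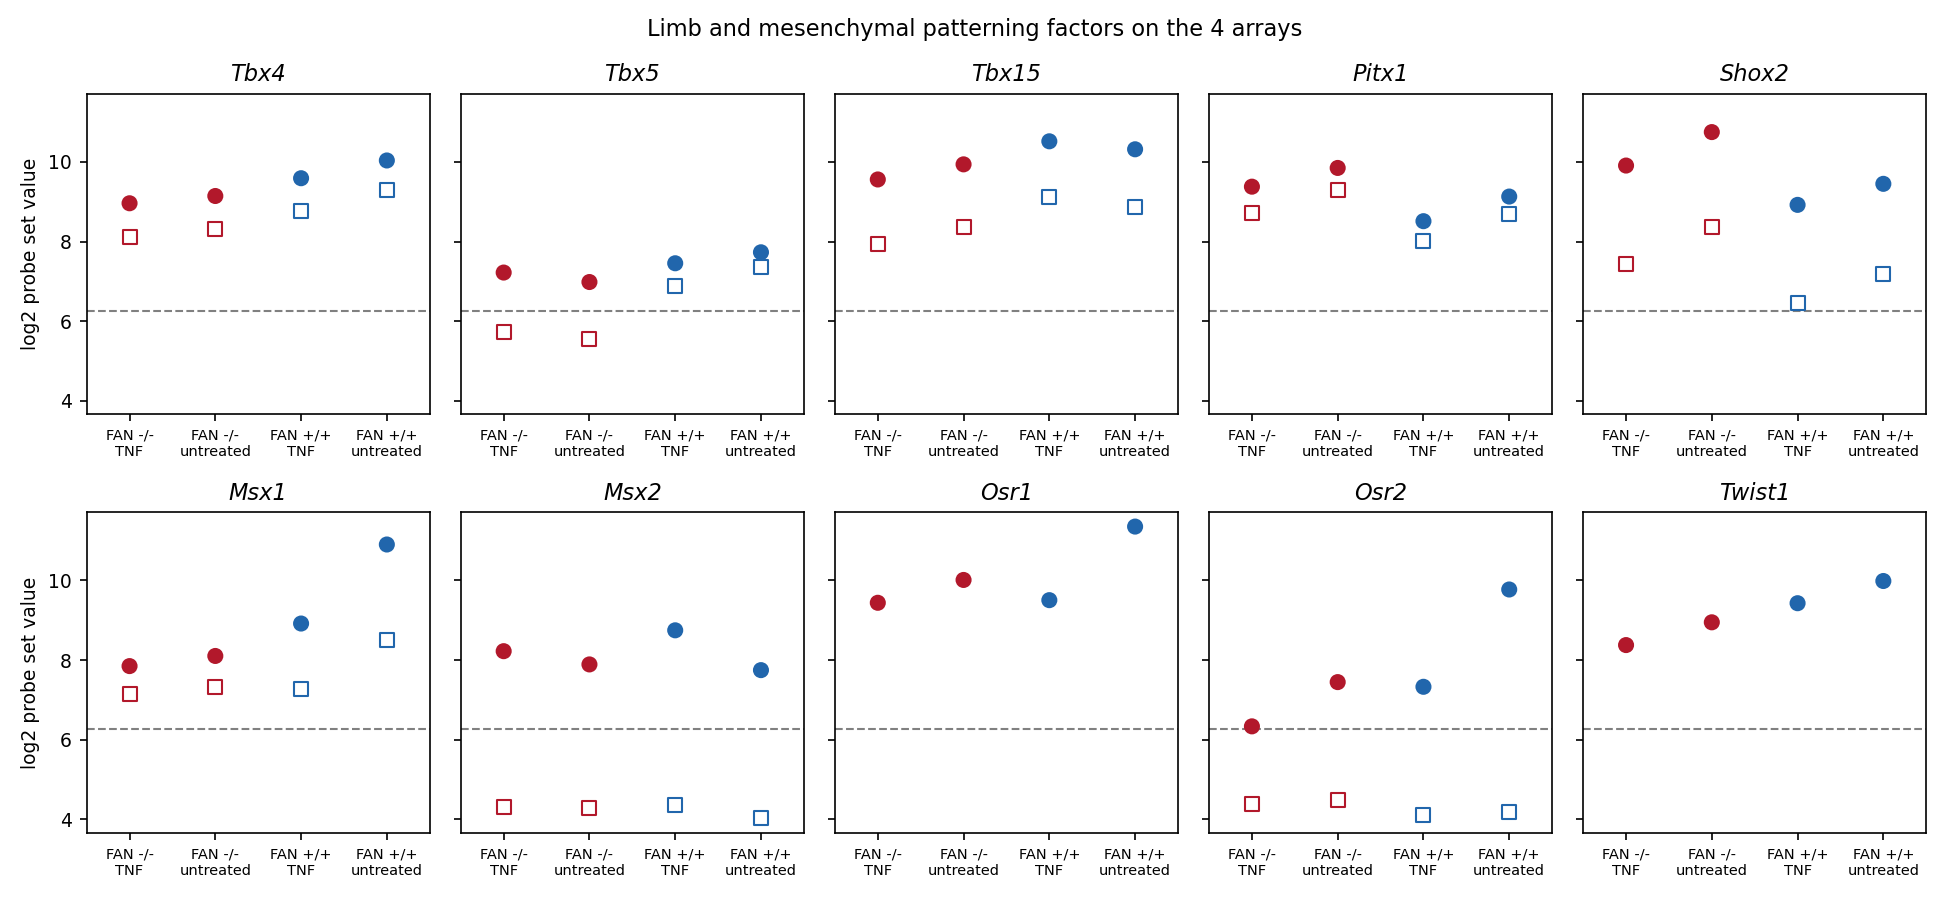
The log2 probe set values (vertical axis) of the 10 patterning factors on the 4 arrays (horizontal axis; FAN -/- in red, FAN +/+ in blue). Filled circles are the probe set used for each gene, open squares a second one, and the dashed line the floor at 6.27; Msx1, Osr1 and Osr2 were far higher on the untreated FAN +/+ array than on the other 3.

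The genotypes differed in 4 of the 10 genes: Shox2 and Pitx1 rose in FAN -/- cells, and Twist1 and Tbx4 fell (limma, Benjamini-Hochberg adjusted p under 0.05). Over all genes tested, 2.94% rose and 3.67% fell in the same comparison, 6.61% in all. The members were chosen with earlier results known. Their counts beside shares of all genes, here and below, describe them and are not a test of the set. At an unadjusted p under 0.05 the members numbered 2 higher and 6 lower, where 11.2% and 13.3% of all genes were so called. All 4 calls were lost without the filter on low values or without the TNF term, and all but that of Twist1 when probe sets of a gene were averaged. The median genotype estimate was -0.69 log2 over the 10 genes, against -0.01 over all genes tested, and ranged from -1.93 (Msx1) to 1.14 (Shox2). In both treatments 7 of the 10 were lower in FAN -/- cells, as were 34.5% of all genes above the floor on at least 1 array, and 2 were higher (33.3%).

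Twist1, which keeps mesenchyme from differentiating, had log2 values of 8.38 with TNF and 8.95 untreated in FAN -/- cells, against 9.43 with TNF and 9.99 untreated in FAN +/+ cells. Both FAN -/- arrays lay below both FAN +/+ arrays, and the gap was nearly the same with TNF (2.07-fold) as without (2.05-fold). The fitted genotype difference was -1.04 ± 0.11 log2 (SE, 2 arrays against 2, limma adjusted p = 0.018).

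Shox2, the homeobox gene of the upper limb bones, went the other way. Its values were 9.91 with TNF and 10.75 untreated in FAN -/- cells, against 8.92 with TNF and 9.45 untreated in FAN +/+ cells. Both FAN -/- arrays were above both FAN +/+ arrays, by 1.98-fold with TNF and 2.46-fold untreated, and limma gave 1.14 ± 0.12 log2 (SE, adjusted p = 0.019). The second probe set gave 7.43 and 8.36 in FAN -/- cells, with TNF and untreated, against 6.47 and 7.18 in FAN +/+ cells, and passed on its own when all probe sets were tested (1.07 log2, limma adjusted p = 0.026).

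Pitx1 and Tbx4, both of the hindlimb programme, differed in opposite directions. Pitx1 had values of 9.38 with TNF and 9.85 untreated in FAN -/- cells, against 8.51 with TNF and 9.13 untreated in FAN +/+ cells (0.79 ± 0.11 log2, SE, limma adjusted p = 0.031). Tbx4 had 8.96 with TNF and 9.15 untreated in FAN -/- cells, against 9.59 with TNF and 10.04 untreated in FAN +/+ cells (-0.76 ± 0.12 log2, SE, limma adjusted p = 0.040). For either gene the genotypes did not overlap. How many of all genes separate the arrays in this way was not counted, for these or for the other members so described. Separation by genotype requires the same sign in both treatments. Of all genes above the floor on at least 1 array, 34.5% were lower in FAN -/- cells in both and 33.3% higher. No weight is put on the separation here. The second probe sets pointed the same way and just missed the threshold when every probe set was tested, with an adjusted p of 0.054 for Pitx1 (0.66 log2) and 0.051 for Tbx4 (-0.81 log2) in limma.

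The forelimb gene Tbx5 lay close to the floor on every array. It had values of 7.22 with TNF and 6.99 untreated in FAN -/- cells, against 7.46 with TNF and 7.73 untreated in FAN +/+ cells, and the genotype difference of -0.49 ± 0.16 log2 (SE, limma adjusted p = 0.16) did not pass. Its second probe set gave 5.74 and 5.56 in FAN -/- cells, with TNF and untreated and both below the floor, against 6.88 and 7.35 in FAN +/+ cells. Tbx15 had 9.56 with TNF and 9.94 untreated in FAN -/- cells, against 10.52 with TNF and 10.32 untreated in FAN +/+ cells. The genotypes did not overlap for Tbx15 either, but the difference of -0.67 ± 0.17 log2 (SE, limma adjusted p = 0.10) did not pass, and it was larger with TNF (1.94-fold) than untreated (1.30-fold). Tbx18, a close T-box relative named after its values were seen, fell in FAN -/- cells (-0.96 ± 0.10 log2, SE, limma adjusted p = 0.019).

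**Figure D2:**
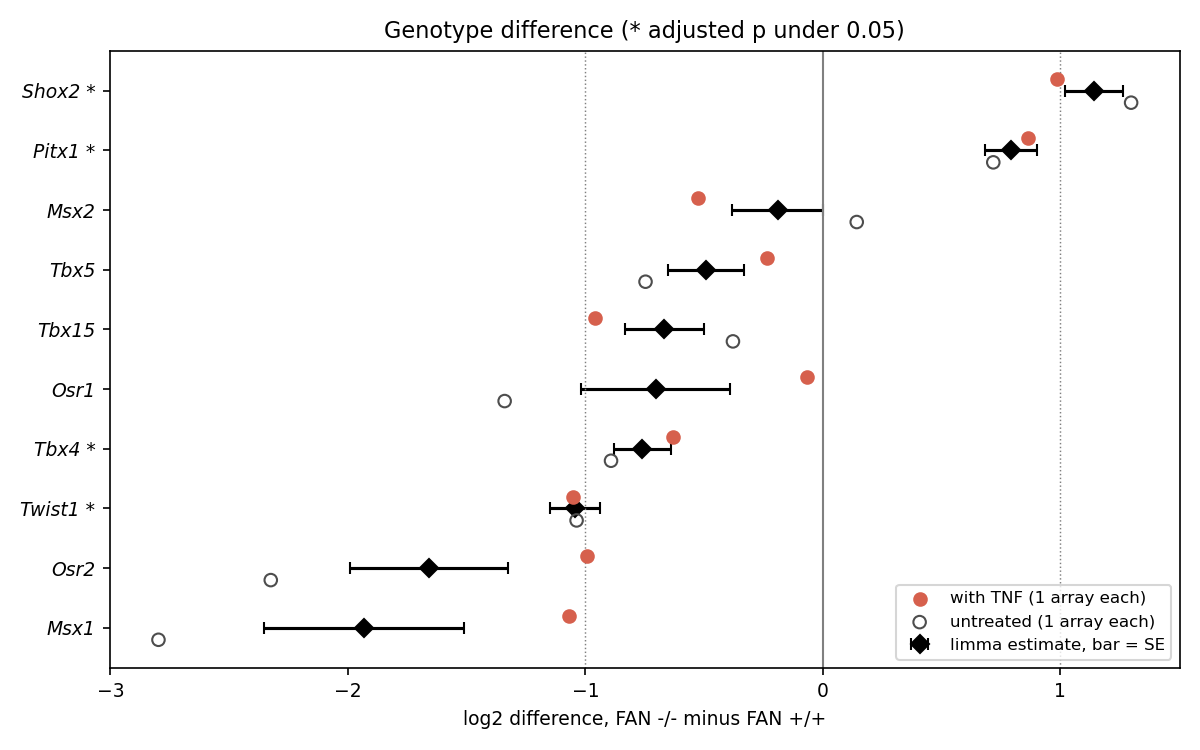
Differences in log2 value, FAN -/- minus FAN +/+ (horizontal axis), for each gene (vertical axis). Filled circles are the arrays with TNF, open circles the untreated ones, diamonds the limma estimates with their SE; the estimates run from -1.93 for Msx1 to 1.14 for Shox2, and asterisks mark the 4 genes past the test.

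The largest differences of the whole set belonged to Msx1, Osr2 and Osr1, and none of them passed the test of either factor at the settings used. For genotype, Msx1 passed with the floor at the 70th percentile (limma adjusted p = 0.043) and Osr2 with quantile normalization (adjusted p = 0.047), and both passed with median centring. The untreated FAN +/+ array was at least 2-fold higher than each of the other 3 for these 3 genes, a pattern shared by 96 genes in all (0.785% of those above the floor). Their high level thus rests on a single array.

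Msx1 had values of 7.85 with TNF and 8.11 untreated in FAN -/- cells, against 8.92 with TNF and 10.90 untreated in FAN +/+ cells. It was 2.10-fold lower in FAN -/- cells with TNF and 6.95-fold lower untreated. The TNF arrays were 1.19-fold lower than the untreated ones in FAN -/- cells and 3.96-fold lower in FAN +/+ cells. The probe set used is of a kind that may also match related transcripts (suffix s). The other Msx1 probe set gave 7.14 and 7.32 in FAN -/- cells, with TNF and untreated, against 7.27 and 8.51 in FAN +/+ cells. Here too the untreated FAN +/+ array was highest, but this probe set put the genotype difference with TNF at only 1.09-fold. The limma genotype estimate of Msx1 was -1.93 ± 0.42 log2 (SE, adjusted p = 0.076) and its TNF estimate -1.12 ± 0.42 log2 (adjusted p = 0.27).

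Osr2 had values of 6.34 with TNF and 7.45 untreated in FAN -/- cells, against 7.33 with TNF and 9.77 untreated in FAN +/+ cells. The lowest of these lies just above the floor. Osr2 was the one member at least 2-fold lower with TNF in both genotypes, by 2.16-fold in FAN -/- cells and 5.44-fold in FAN +/+ cells. Its limma estimates were -1.66 ± 0.33 log2 for genotype (SE, adjusted p = 0.065) and -1.78 ± 0.33 log2 for TNF (adjusted p = 0.081).

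Osr1, the paralogue of Osr2, had values of 9.44 with TNF and 10.01 untreated in FAN -/- cells, against 9.51 with TNF and 11.35 untreated in FAN +/+ cells. With TNF the genotypes were 1.05-fold apart, the smallest gap of any member with TNF, while untreated FAN -/- cells were 2.53-fold lower. Its limma estimates were -0.70 ± 0.31 log2 for genotype (SE, adjusted p = 0.26) and -1.21 ± 0.31 log2 for TNF (adjusted p = 0.15).

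Msx2 was the only member of the 10 with higher values with TNF in both genotypes, as 29.9% of all genes were. It had 8.23 with TNF and 7.89 untreated in FAN -/- cells, against 8.75 with TNF and 7.75 untreated in FAN +/+ cells. The difference was 0.33 log2 in FAN -/- cells and 0.9996 log2, just short of 2-fold, in FAN +/+ cells. Both TNF arrays lay above both untreated arrays, and the TNF estimate of 0.67 ± 0.19 log2 (SE, limma adjusted p = 0.18) did not pass. Its paralogue Msx1 was lower with TNF in both genotypes.

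For TNF, then, 0 of the 10 genes rose and 0 fell in the limma test, where 1.57% of all genes tested rose and 1.14% fell. At an unadjusted p under 0.05, 6 were lower (Msx1, Osr1, Osr2, Pitx1, Shox2 and Twist1) and Msx2 was higher, where 10.6% and 8.2% of all genes were so called. With each array centred on its median, Osr1, Osr2, Pitx1, Shox2 and Twist1 fell, while with quantile normalization 0 did. Centring moved the estimates little (Twist1 -0.60 against -0.56 log2, Osr2 -1.81 against -1.78 log2), and the prior degrees of freedom of the fit were 7.77 with it and 3.52 without. Over all genes 405 rose and 518 fell with centring, against 186 and 135 without. The median TNF estimate was -0.55 log2 over the 10 genes and -0.02 over all genes tested. Lower values with TNF in both genotypes were found for 7 of 10 members and for 33.9% of all genes above the floor on at least 1 array.

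By size, 1 member was at least 2-fold lower with TNF in FAN -/- cells (1.07% of all genes) and 3 in FAN +/+ cells (1.92%), and 0 were at least 2-fold higher in either, as were 1.35% of all genes in FAN -/- cells and 2.2% in FAN +/+ cells. The responses had the same sign in both genotypes for all members but Tbx5 and Tbx15. Among those of the same sign were Twist1 (-0.57 log2 in FAN -/- cells and -0.56 in FAN +/+ cells), Pitx1 (-0.47 and -0.62), Shox2 (-0.84 and -0.53) and Tbx4 (-0.18 and -0.45). The difference of the responses reached 2-fold for Msx1, Osr1 and Osr2, all less negative in FAN -/- cells (0.794% of all genes). With probe sets averaged, that of Osr2 was 0.67 log2 in place of 1.33 and 2 genes were past 2-fold; 0 members differed as much the other way (0.818%). The fit uses this difference as its residual, so it was not tested. Between genotypes, 2 members were at least 2-fold lower in FAN -/- cells with TNF (2.64% of all genes) and 4 untreated (2.89%); 0 were at least 2-fold higher with TNF (1.55%), and 1, Shox2, was at least 2-fold higher untreated (1.45%).

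**Figure D3:**
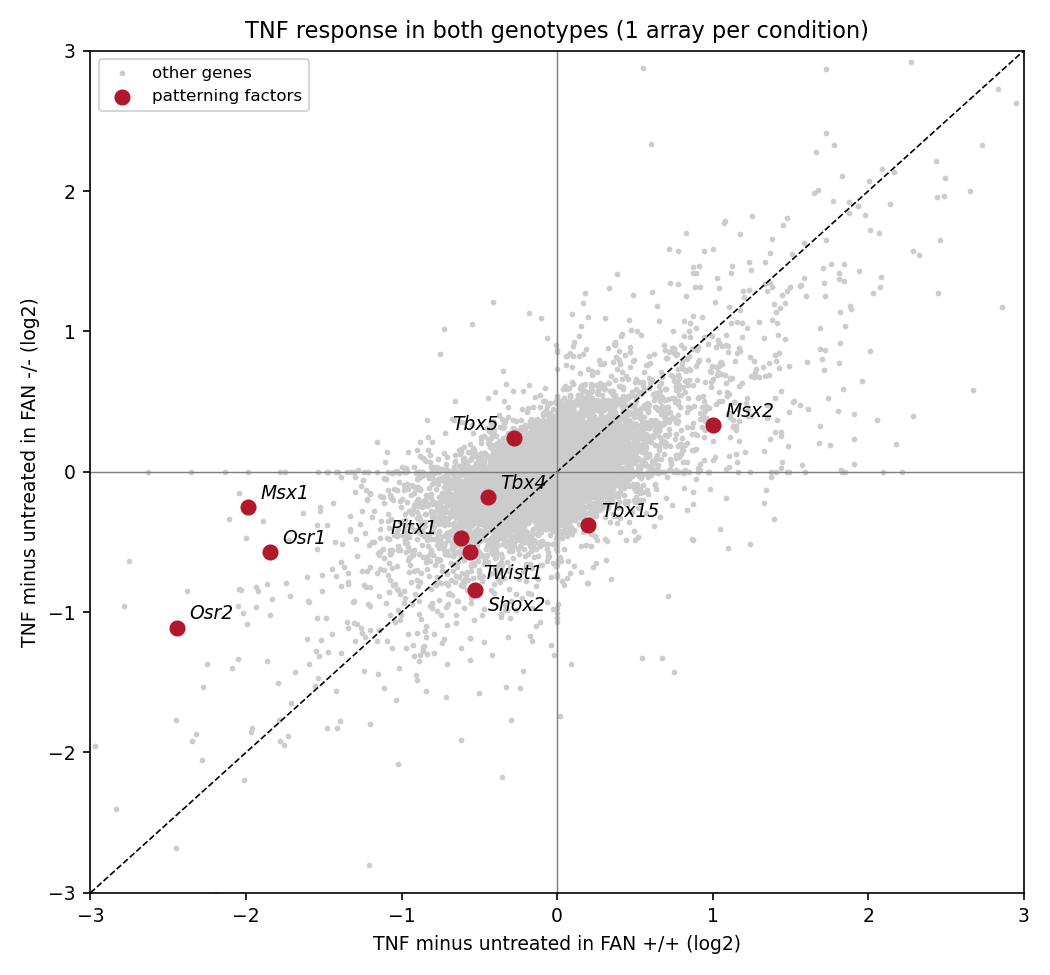
The log2 difference between TNF and untreated in FAN -/- cells (vertical axis) and in FAN +/+ cells (horizontal axis) for the 10 factors (red) and all other genes above the floor (grey; 32 genes lie outside the axes of -3 to 3). The dashed line marks equal responses; Msx1, Osr1 and Osr2 lie to the left of it, at -1.98, -1.85 and -2.44 in FAN +/+ cells.

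The genes whose profile over the 4 arrays lay closest to a member's were found among 10985 genes above the floor on all arrays, by the distance between mean-centred log2 values, for the 7 members that spanned at least 1 log2. Those of Twist1 were Fam110b, Edil3 and Ror2, the nearest at 0.10 log2. Those of Tbx4 were Bhlhb9, Ermp1 and Rnf217 (nearest 0.03), of Pitx1 Trp53inp1, Maoa and Gria3 (0.06), and of Shox2 Zfp365, Rgs4 and Prkg1 (0.11). The profiles with a peak on the untreated FAN +/+ array had more distant neighbours: Kazald1, Ephb6 and Sema3a for Osr1 (nearest 0.25), Igfbp5, 6330403K07Rik and Dkk2 for Osr2 (0.31), and Fxyd1, Carns1 and Plin4 for Msx1 (0.48). Among the members themselves the closest pairs were Tbx4 with Twist1 (0.40), Tbx4 with Tbx5 (0.42) and Pitx1 with Shox2 (0.44). With 4 arrays such closeness describes these arrays only.

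A wider list of 75 limb and mesenchyme transcription factors, none of them a member, also differed between genotypes in both directions. The list was chosen with earlier results of these data known, so its counts describe it and are not a test of the set. Of the 45 that could be tested, 7 rose and 9 fell in FAN -/- cells (limma adjusted p under 0.05), against 2.94% and 3.67% of all genes, and their median estimate was -0.04 log2. Barx1, a homeobox gene of the stomach and jaw mesenchyme, lay at the floor on both FAN -/- arrays and was at least 5.23-fold lower with TNF and 3.68-fold lower untreated (limma adjusted p = 0.010). Ebf1 fell by 2.04 log2 (SE 0.14, limma adjusted p = 0.0096). The limb bud factor Hand2 was also at the floor on both FAN -/- arrays, at least 2.22-fold lower with TNF and 4.05-fold lower untreated (limma adjusted p = 0.032). The floor gave Barx1 and Hand2 equal values on both FAN -/- arrays, so these p-values depend on it in part. Lmx1b, which sets the dorsal side of the limb, fell by 1.30 log2 (limma adjusted p = 0.026). Meis2, which marks the proximal limb bud, rose by 1.44 ± 0.11 log2 (SE, limma adjusted p = 0.011), and Lhx9 by 1.34 ± 0.22 log2 (SE, adjusted p = 0.042). With TNF 2 of the 45 fell, Pbx3 (-1.30 log2, limma adjusted p = 0.025) and Prrx2 (-0.88 log2, adjusted p = 0.031), and 0 rose. Over all genes tested, 1.14% fell and 1.57% rose with TNF.

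**Figure D4:**
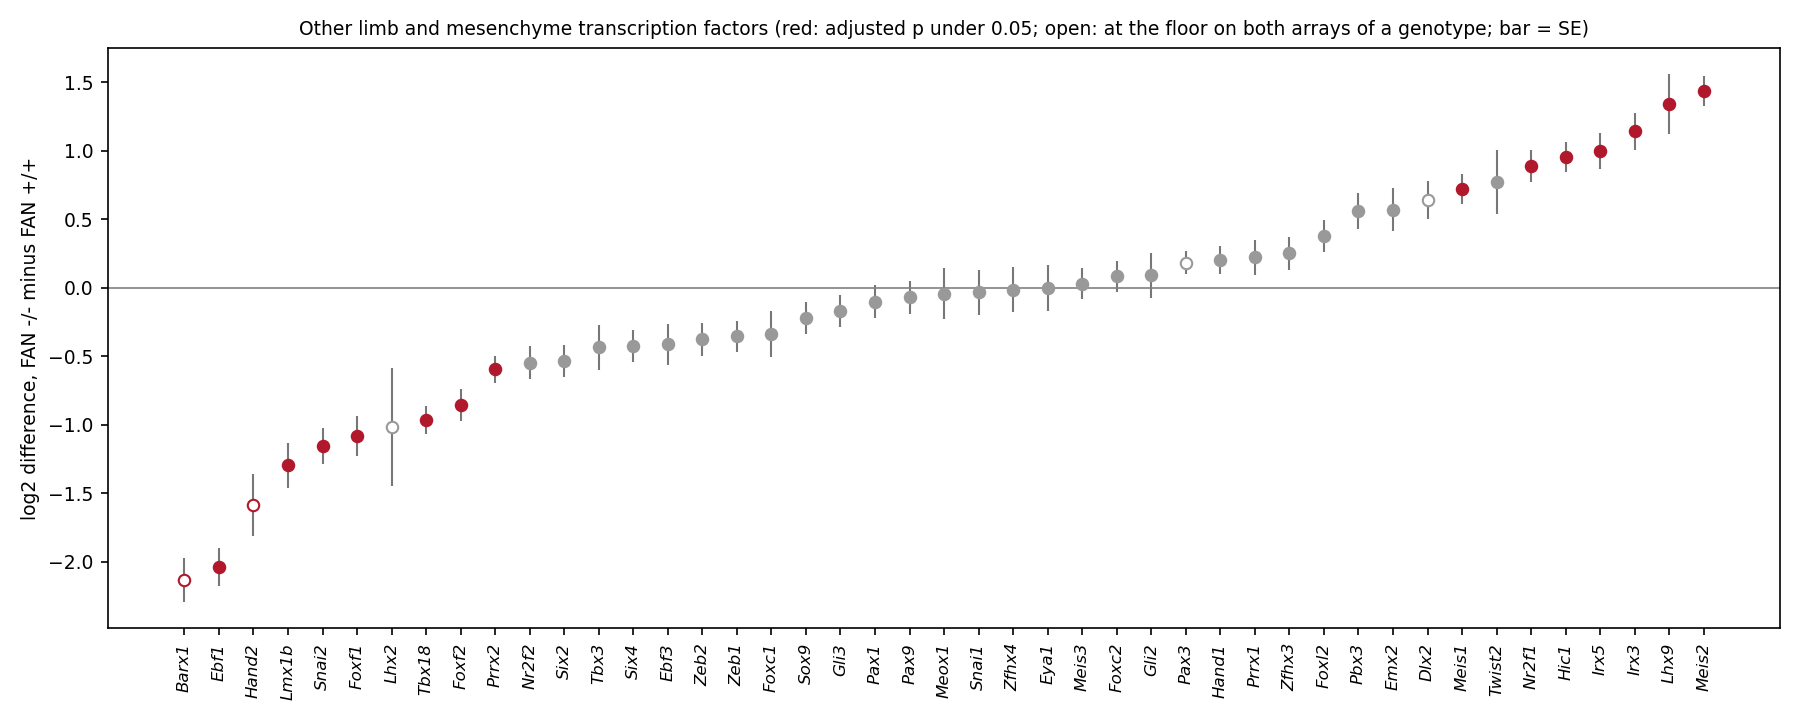
The limma genotype estimates with their SE (vertical axis, log2 difference, FAN -/- minus FAN +/+) of the 45 other limb and mesenchyme transcription factors tested, in rising order. Red marks the 16 past the test, 9 of them below 0 and 7 above, and open circles genes at the floor on both arrays of a genotype, for which the estimate is not fully measured.

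Of 41 limb bud signals, receptors and inhibitors, a list also chosen with earlier results known, 30 could be tested. In FAN -/- cells 4 rose and 3 fell, where 2.94% and 3.67% of all genes did. Aldh1a2, which makes retinoic acid, rose by 1.98 ± 0.15 log2 (SE, limma adjusted p = 0.010), as did Cyp26b1, which breaks it down, by 0.80 log2 (adjusted p = 0.032). The outgrowth signal Wnt5a rose by 1.20 log2 (limma adjusted p = 0.016). The FGF receptor gene Fgfr2 fell by 1.85 log2 (limma adjusted p = 0.0096), the Wnt-enhancing Rspo3 by 1.38 log2 (adjusted p = 0.018) and the R-spondin receptor gene Lgr5 by 1.19 log2 (adjusted p = 0.049). With TNF, Fgf18 fell by 2.13 log2 and Lgr5 by 1.90 log2, while Fgf7 rose by 0.55 log2 (limma adjusted p = 0.014, 0.028 and 0.049). Fgf18 lay at the floor on the FAN +/+ array with TNF, so its estimate is not fully measured. Over all genes, 1.14% fell and 1.57% rose with TNF. Shh, Fgf8 and Wnt3, signals of the limb bud's organising centres, lay at the floor on all 4 arrays.

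A further list of 14 genes held the E protein partners of Twist1, the Id proteins that sequester them, and Hey and Smad genes, the Smad proteins carrying or curbing the BMP signal to which Msx1 and Msx2 respond. Of 13 tested, 4 fell with TNF and 0 rose, where 1.14% and 1.57% of all genes did: Id4 (-1.68 log2, limma adjusted p = 0.0115), Id1 (-1.56 log2, adjusted p = 0.0141), Id3 (-0.96 log2, adjusted p = 0.0498) and the inhibitory Smad6 (-0.78 log2, adjusted p = 0.0390). Their median TNF estimate was -0.44 log2. Earlier results of these data were known when this list was chosen. Id4 rose (2.90-fold higher with TNF and 2.78-fold higher untreated, limma adjusted p = 0.00968) and the E protein gene Tcf4 fell (-0.76 log2, adjusted p = 0.024) in FAN -/- cells.

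Markers of other cell types and of growth moved with genotype as well, and their part in the differences above was not tested. Over all genes tested, 3.67% fell and 2.94% rose in FAN -/- cells, and 1.14% fell and 1.57% rose with TNF. These lists too were chosen with earlier results of these data known. Of 15 cell cycle genes tested, 7 fell in FAN -/- cells, and the summed signal of the list was 4191 with TNF and 4435 untreated in FAN -/- cells, against 6128 with TNF and 8869 untreated in FAN +/+ cells. Of 6 cartilage markers tested, 4 fell (Col2a1, Comp, Sox5 and Sox6), with summed signals of 741 and 870 in FAN -/- cells, with TNF and untreated, against 1950 and 3496 in FAN +/+ cells; Acan and Matn1 were at the floor throughout. Of 5 neural markers tested, 3 rose (Nes, Stmn2 and Tubb3), with summed signals of 6762 and 4552 in FAN -/- cells, with TNF and untreated, against 2712 and 3086 in FAN +/+ cells, while Gfap was at the floor. Other neural markers went the other way: untreated, Map2 had 7.50 in FAN -/- cells and 9.87 in FAN +/+ cells (5.16-fold lower), and of the list 2 markers were at least 2-fold lower and 1 higher in untreated FAN -/- cells. Of 11 fibroblast markers, 4 fell (Dcn, Lum, Pdgfra and S100a4) and 0 rose; their summed signal was 93475 and 105151 in FAN -/- cells, with TNF and untreated, against 125445 and 124385 in FAN +/+ cells. Of 8 smooth muscle and pericyte markers, 2 rose in FAN -/- cells (Des and Mcam) and 3 fell with TNF (Cnn1, Mcam and Myh11). The adipocyte marker Fabp4 fell in FAN -/- cells (limma adjusted p = 0.00854). Of 5 leukocyte markers tested, 0 passed for genotype, but Lyz2 was 3.28-fold higher and Csf1r 2.46-fold higher in untreated FAN -/- cells than in untreated FAN +/+ cells. Between the arrays with TNF, 0 leukocyte markers were at least 2-fold higher in FAN -/- cells. The summed leukocyte signals there were 1007 in FAN -/- cells and 993 in FAN +/+ cells. With TNF, Thy1 of the fibroblast list and Lpl of the adipocyte list fell.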

How the data were processed

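The table used holds 1 log2 value per probe set and array as deposited by the authors, for 45101 probe sets. MAS5, with no version, is named in the submitters' processing notes; the scaling between arrays, the filters and the genome build are not given in the sources used here. That the values are log2 was read from their range, so how far low values were compressed is unknown. Of the probe sets, 34945 name 1 gene by the platform annotation, 932 name several, 9160 are unnamed here and 64 are controls; Entrez identifiers matched the reference gene table for 34741, and 0 symbols changed.

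A floor was set at the 50th percentile of all values (log2 6.27), and lower values took its value. A gene is its probe set of highest mean; 12224 genes lay above the floor on at least 1 array, and the 11817 above it on at least 2 were tested with limma 3.58.1 in R 4.3.3 (additive model of genotype and TNF, eBayes with a trend on intensity, Benjamini-Hochberg adjustment). The fit was tested on simulated data. Differences between single arrays were called at 2-fold, and a value at the floor makes a fold a bound. P-values rest on the 1 residual degree of freedom of this fit, moderated across genes, and not on repeated cultures. The number of arrays limits their precision.

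All members were named, with Nsmaf. Of each wider list, the genes past the limma test were named, or the 6 of largest estimate where more passed, and the 3 genes of most similar profile were named for members spanning 1 log2. The members, lists and rules were chosen with earlier results of these data known. Alternatives were floors at the 30th and 70th percentile, log2(value + 16) without a floor, no filter, quantile normalization, median centring, mean or separate probe sets, no trend, robust eBayes and leaving out a factor.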

Additional observations from a re-analysis of the deposited data

Results flagged for a closer look

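For 2 members the TNF response had opposite signs in the genotypes with all values above the floor. Tbx15 was lower with TNF in FAN -/- cells (-0.38 log2) and higher in FAN +/+ cells (0.20 log2), a difference of responses of -0.58 log2. Tbx5 was higher with TNF in FAN -/- cells (0.24 log2) and lower in FAN +/+ cells (-0.28 log2), a difference of 0.51 log2. For Msx2 the genotype difference had opposite signs, -0.52 log2 with TNF and 0.14 log2 untreated, a difference of -0.67 log2. With 1 array per condition none of these differences was tested.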

How the results depend on the processing

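Repeats of the members' limma estimates under the alternatives kept direction and side of the threshold in 192 cases, gained a call in 11, lost one in 12 and turned sign in 1, the near-zero TNF estimate of Tbx5 (0.0095 log2 with quantile normalization). Against 0 members that fell with TNF, 1 fell with the floor at the 70th percentile (Shox2) and 5 with median centring. With the floor at the 70th percentile, Tbx5 and Osr2 had too few arrays above it to be tested. Against 2 that rose and 2 that fell in FAN -/- cells, 0 and 0 did without a filter (unadjusted, 2 and 2) and likewise without the TNF term (unadjusted, 1 and 4), 0 and 1 (Twist1) with probe sets averaged, 2 and 1 without a floor (Tbx4 lost), 2 and 3 with the floor at the 70th percentile (Msx1 added) and with quantile normalization (Osr2 added), and 2 and 5 with median centring (Msx1, Osr2 and Tbx15 added). Over all genes, limma calls for TNF numbered 0 and 0 without a filter (863 and 823 unadjusted), with probe sets averaged (988 and 1119) and without the genotype term (450 and 434), 233 and 225 with the floor at the 70th percentile and 115 and 71 without a floor, and genotype calls numbered 0 and 0 without a filter (1117 and 1063), 92 and 106 with probe sets averaged, 4 and 6 without the TNF term and 532 and 980 with median centring. Osr2 as the 1 member 2-fold lower with TNF in FAN -/- cells became 0 with the floor at the 70th percentile, without a floor and with probe sets averaged. The 3 whose responses differed 2-fold became 2 with probe sets averaged. For Osr2, both FAN -/- values lie under the 70th percentile floor (log2 7.84). Averaging adds a probe set held at the floor on all 4 arrays, which shrinks every Osr2 difference. Without a floor, the FAN -/- difference was -0.98 log2. With quantile normalization, 1 member each, against 0, was 2-fold higher with TNF in FAN +/+ cells and 2-fold higher in FAN -/- cells with TNF. The cause of the other changes was not tested. No paired analysis was possible because each condition has 1 array and the labels carry no replicate numbers; leaving out an array leaves no residual degree of freedom.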

Other observations

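Genes next to the members in gene order (GRCm38.p6) were looked up, and those named here were chosen after their values were seen. Tbx2 lies beside Tbx4 and was at the floor on all 4 arrays. Tbx3 lies beside Tbx5 and had log2 values of 8.31 with TNF and 7.89 untreated in FAN -/- cells, against 8.99 with TNF and 8.07 untreated in FAN +/+ cells, with a TNF estimate of 0.67 log2 (limma adjusted p = 0.14). Ptx3, which encodes the secreted pattern-recognition protein pentraxin 3 and lies beside Shox2, rose with TNF by 0.88 log2 (limma adjusted p = 0.025). Stx18, beside Msx1, had values of 8.70 and 8.76 in FAN -/- cells, with TNF and untreated, against 9.20 and 9.79 in FAN +/+ cells (genotype estimate -0.76 log2, limma adjusted p = 0.074).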
